A study of Homo sapiens with 6 samples.

Results

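The genes described here encode SR proteins, heterogeneous nuclear ribonucleoproteins (hnRNPs) and the kinases that phosphorylate SR proteins. They were chosen by symbol: SRSF followed by a digit, HNRNP, CLK1 to CLK4, TRA2A, TRA2B, SRPK1 and SRPK2. Every probe set whose platform annotation names exactly 1 such symbol was taken, which gave 176 probe sets of 42 genes. The whole table holds 49395 probe sets, of which 44988 name 1 symbol and stand for 18132 genes. Of the 42 genes, 35 had 2 or more probe sets, 7 had 1, and SRSF5 had the most with 11.

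Total RNA was measured on 6 PrimeView arrays of cells labelled HCT-116, an established human colorectal carcinoma line, grown in RPMI medium with serum and described by the submitters as high in Aurora-A and PLK-1. The 2 groups are a DMSO (vehicle) control with 3 arrays and a group of 3 arrays given AAPK, a compound known here only by that code, which the series title calls a dual inhibitor of the kinases Aurora A and PLK-1. The treatment field gives 10 µM and 48 h and reads the same for all 6 samples. The study asked how the compound changes gene expression. Whether the samples within a group were separate cultures is not said, so each p-value rests on a spread between samples that may be only technical. Arrays are called DMSO 1 to 3 and AAPK 1 to 3, and signals are the deposited values on the log2 scale.

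SR proteins bind exonic enhancers through RNA recognition motifs and recruit the splicing machinery through a tail rich in arginine and serine, which SRPKs phosphorylate mainly in the cytoplasm and CLKs in the nucleus. Many hnRNPs bind silencers in exons or introns and oppose SR proteins at the same splice sites. Genes of both families commonly regulate their own output by alternative splicing, often by including an exon with a premature stop that sends the transcript to nonsense-mediated decay, and CLK1 transcripts with retained introns are stored in the nucleus. Probe sets of 1 such gene can therefore report different transcripts.

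Markers of the labelled cell type were mixed. The keratins KRT8 and KRT18 ranked at the 99.2 and 99.5 percentile of signal among the 18132 genes. EPCAM, VIL1, KRT19 and CDH1, which mark colon epithelium, ranked at the 0.866, 5.2, 13.3 and 14.5 percentile, and CDX1 at 51.4. Vimentin (VIM, 99.6) and KRT7 (98.1), looked up after the other markers were seen, ranked among the brightest genes. These ranks go against a typical HCT-116 profile and probe sets differ in brightness, so the cells are called by their label and their identity was not tested. Fibroblast markers ranked from the 0.331 to the 47.9 percentile and endothelial markers from 28.4 to 65.3. Of the blood markers, HBB ranked at 80.3 and PTPRC, CD3D and CD14 at 3.77, 9.12 and 8.06. Of the 21 measured markers of epithelium, fibroblasts, endothelium and blood, 1 was called between the groups: KRT8, with a log2 change of 0.17. The mean signal of the 7 epithelial markers ran from 7.00 to 7.05 on the DMSO arrays and from 7.02 to 7.04 on the AAPK arrays, that of the 6 fibroblast markers from 5.61 to 5.71 and 5.60 to 5.70, that of the 4 endothelial markers from 7.05 to 7.12 and 6.96 to 7.09, and that of the 4 blood markers from 5.31 to 5.38 and 5.30 to 5.38.

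The arrays were alike in their bulk, with medians from 6.46 to 6.50 and correlations of 0.9976 to 0.9983 within and 0.9942 to 0.9954 between groups. Control probe sets for ribosomal RNA differed between the groups: those for the 5′ end and the middle of the large subunit were higher in AAPK by 0.56 and 0.51 (limma adjusted p = 5.49e-04 and 2.52e-04), and that for the 3′ end of the small subunit was lower by 0.41 (-0.41, adjusted p = 0.00228). The other 3 ribosomal controls were not called, at -0.13 for the 3′ end of the large subunit and at -0.06 and -0.06 for the 5′ end and the middle of the small subunit (adjusted p = 0.245, 0.633 and 0.699). The 3′ minus 5′ signal of GAPDH and ACTB overlapped between groups. The part of the ribosomal RNA difference in the results was not tested.

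The probe sets of these genes changed in both directions. With limma over all 44988 probe sets and Benjamini-Hochberg adjustment at 0.05, 39 of the 176 were higher in AAPK, 24 were lower and 113 were not called. This is 35.8%, against 12.9% of all probe sets (7.13% higher and 5.82% lower). Most of the probe sets were bright: 142 lay above the median signal, and 57 of these were called, or 40.1%, against 20.3% of all probe sets above it. The median log2 change was 0.03, against -0.01 for all probe sets, and the median size of change was 0.14 against 0.07. In 100 probe sets the groups of arrays did not overlap, 61 with AAPK higher and 39 with AAPK lower, where 29.6% of all probe sets did not overlap. With quantile normalisation all 3 calls on SRSF9, 2 of the 3 on SRSF3 and 2 of the 4 on SRSF11 were lost, and with median centring the weakest calls on TRA2A and HNRNPA0 were lost. On bulk RNA, a change in RNA per cell and a change in the mix of cells cannot be told apart.

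**Figure D1:**
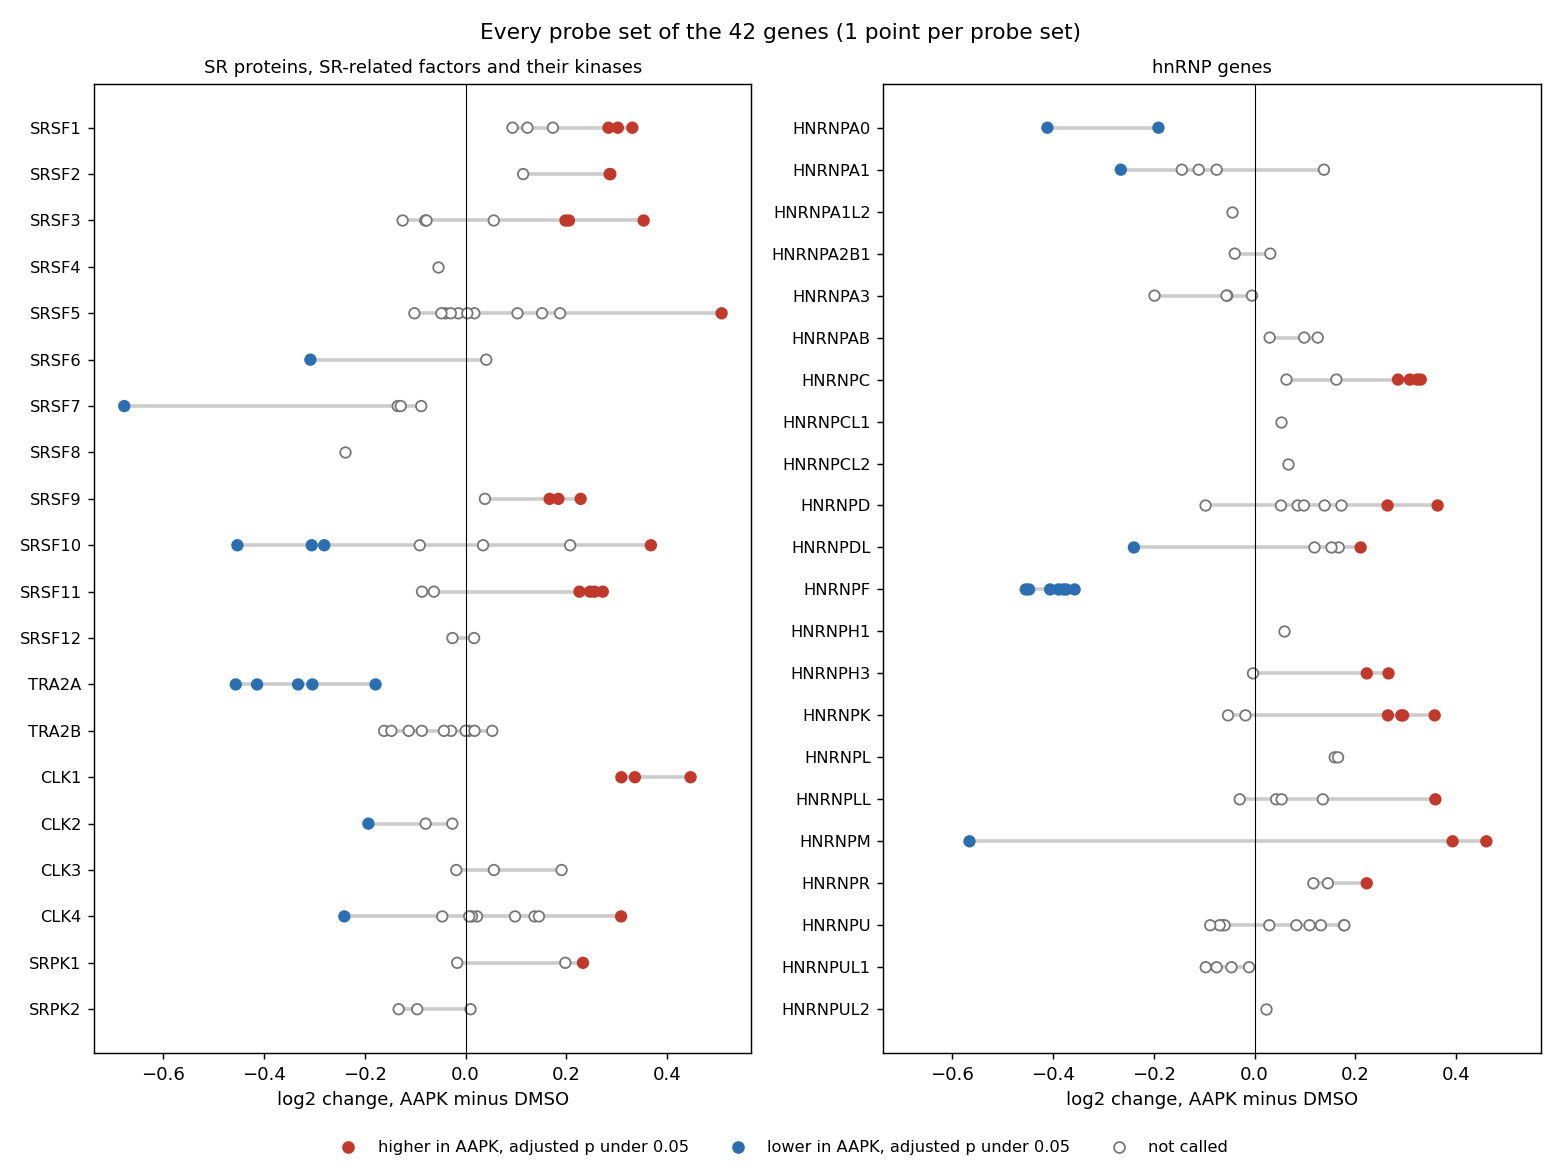
Each point is 1 probe set and each row 1 of the 42 genes, with the log2 change of AAPK minus DMSO (3 arrays each) on the x axis and a grey line spanning a gene's probe sets. Filled points passed an adjusted p of 0.05 (39 higher in red, 24 lower in blue) and open points did not (113); HNRNPM spans the widest range, from -0.57 to 0.46, and all 7 probe sets of HNRNPF lie close together on the left.

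With 1 probe set per gene, the brightest over all 6 arrays, 10 of the 42 genes were higher in AAPK, 7 were lower and 25 were not called (15.4% of all genes were called, 8.11% higher and 7.26% lower). The higher genes were SRSF1, SRSF2, SRSF3, SRSF9, SRSF11, CLK1, HNRNPC, HNRNPDL, HNRNPH3 and HNRNPLL. The lower genes were SRSF6, SRSF10, TRA2A, CLK4, HNRNPA0, HNRNPF and HNRNPM. The brightest probe set does not speak for the whole gene in all of these: with the mean over a gene's probe sets in its place, HNRNPM and CLK4 stood at 0.10 and 0.05 (adjusted p = 0.174 and 0.477), and SRSF3, SRSF10 and HNRNPLL were no longer called (adjusted p = 0.282, 0.324 and 0.074). With the probe set of the largest SD in its place, SRSF11 stood at -0.09 and HNRNPDL at -0.24 (adjusted p = 0.664 and 0.0188), and CLK4 at 0.31. HNRNPDL, at 0.17 (adjusted p = 0.0416), was not called without any 1 of DMSO 1, DMSO 2 or the AAPK arrays, with changes of 0.14 to 0.18. SRSF9, at 0.18, was not called without DMSO 3 (0.17) or AAPK 2 (0.18), and HNRNPA0, at -0.19, was not called without DMSO 2, DMSO 3 or any AAPK array (-0.20 to -0.16).

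CLK1 and HNRNPF were the genes with at least 3 probe sets of which every one was called in the same direction and no call was lost on leaving out an array, so the 250 bases before their annotated starts are shown, from RefSeq on assembly GRCh38.p14, 5′ to 3′ on the gene's strand. CLK1 lies on the minus strand of chromosome 2 (chr2:200864659-200864908) and HNRNPF on the minus strand of chromosome 10 (chr10:43408858-43409107). Capitals mark every match to 4 motifs searched on both strands: the CCAAT box (CCAAT), the GC box (GGGCGG), the cAMP response element (TGACGTCA) and a heat shock element core (GAANNTTC).
CLK1: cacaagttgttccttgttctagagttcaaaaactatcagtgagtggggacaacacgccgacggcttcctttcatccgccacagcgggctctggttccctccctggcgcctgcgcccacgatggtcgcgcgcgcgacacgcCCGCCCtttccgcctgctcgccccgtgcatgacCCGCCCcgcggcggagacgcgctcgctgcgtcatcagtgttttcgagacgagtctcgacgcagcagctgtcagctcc
HNRNPF: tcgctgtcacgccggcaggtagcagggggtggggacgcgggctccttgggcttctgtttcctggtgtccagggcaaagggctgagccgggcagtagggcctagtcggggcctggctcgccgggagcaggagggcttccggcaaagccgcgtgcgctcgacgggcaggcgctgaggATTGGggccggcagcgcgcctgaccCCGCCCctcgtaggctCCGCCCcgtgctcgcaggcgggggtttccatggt

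The CLK1 window held 2 GC boxes, both as CCGCCC on the strand shown. That of HNRNPF held 2 GC boxes and 1 CCAAT box, read as ATTGG. Promoters were matched for 39 of the 42 genes, all but SRSF2, TRA2A and HNRNPA1. A GC box was present in 24 of the 39 (61.5%, against 42.3% of all 27305 promoters of the same length), a CCAAT box in 17 (43.6% against 33%), a heat shock element core in 3 (7.69% against 5.85%) and the cAMP response element in 0 (1.77% of all). The 27305 promoters were not limited to genes measured on the array. These are matches of letters only.

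Among the classical SR proteins, 12 of 39 probe sets were higher in AAPK, 2 were lower and 25 were not called. That is 35.9% called, against 12.9% of all probe sets. SRSF1, the founding member of the family, was called higher on 3 of 6 probe sets and all 6 changes were above 0, from 0.09 to 0.33. SRSF2, a further archetypal SR protein, was called higher on 2 of 3, at 0.29 and 0.29. SRSF9 was called higher on 3 of 4, at 0.17 to 0.23, but each of these calls was lost without DMSO 1 (0.17 to 0.23, adjusted p = 0.104, 0.0615 and 0.0952) and also without DMSO 2, AAPK 1, AAPK 2 or AAPK 3. Thus SRSF1 and SRSF2 kept their calls under every alternative and SRSF9 did not.

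SRSF3, the smallest SR protein and an adaptor for mRNA export, had 7 probe sets that did not move alike. The clearest rise was on 11753649_s_at, at 10.79, 10.66 and 10.75 in DMSO and 11.05, 11.11 and 11.10 in AAPK. All AAPK arrays were above all DMSO arrays, and the log2 change was 0.35 ± 0.05 (SE, n = 3 per group, limma adjusted p = 0.00143), a 1.28-fold rise. The 2 other called probe sets were higher by 0.21 and 0.20, the first not called without DMSO 2 (0.18, adjusted p = 0.057) and the second not called without DMSO 1, DMSO 2, DMSO 3, AAPK 2 or AAPK 3 (0.17 to 0.22). The 4 probe sets not called ran from -0.12 to 0.06.

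SRSF7, which carries a zinc knuckle and also serves mRNA export, had the largest change of all 176 probe sets on only 1 of its 4. On 11717294_a_at the DMSO arrays read 7.78, 7.65 and 7.79 and the AAPK arrays read 7.03, 7.13 and 7.04. The groups lay far apart, with a log2 change of -0.68 ± 0.06 (SE, n = 3 per group, limma adjusted p = 5.18e-05), 1.60-fold lower in AAPK. Its other 3 probe sets stood at -0.13, -0.13 and -0.09, and none was called, although in each the 3 AAPK arrays were below the 3 DMSO arrays. The called probe set fell by 0.56 relative to the mean of the other 3 (-0.56 ± 0.05, limma adjusted p = 0.00176).

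SRSF5 had 11 probe sets and 1 call. On 11760894_s_at the DMSO arrays read 6.42, 6.42 and 6.45 and the AAPK arrays read 7.20, 6.99 and 6.62. The AAPK arrays were all higher but spread widely, and the change of 0.51 ± 0.11 (SE, n = 3 per group, limma adjusted p = 0.0151, 1.42-fold) was not called without AAPK 2 (0.48, adjusted p = 0.0554). The other 10 probe sets of SRSF5 ran from -0.10 to 0.19. SRSF6 was lower on the brighter of its 2 probe sets, from 10.32, 10.29 and 10.38 to 10.03, 10.04 and 9.99 (-0.31 ± 0.05, adjusted p = 0.00231), and stood at 0.04 on the other. SRSF4 and SRSF8, with 1 probe set each, stood at -0.06 and -0.24 and were not called (adjusted p = 0.522 and 0.0657).

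The SR-related factors gave 5 probe sets higher, 8 lower and 17 not called of 30 (43.3% called, against 12.9% of all probe sets). TRA2A and TRA2B, paralogs that bind purine-rich exonic enhancers, differed in their counts. All 5 TRA2A probe sets were called lower, from -0.46 to -0.18, and 0 of the 10 TRA2B probe sets were called by limma, with changes from -0.16 to 0.05 and 1 with an unadjusted p under 0.05. The difference between the paralogs was not itself tested.

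The TRA2A probe set with the smallest adjusted p, 11746876_a_at, read 7.76, 7.84 and 7.87 in DMSO and 7.34, 7.45 and 7.44 in AAPK. The groups did not overlap, and the change was -0.41 ± 0.05 (SE, n = 3 per group, limma adjusted p = 7.48e-04, 1.33-fold lower). The brightest, 11748970_a_at, went from 8.03, 8.08 and 8.19 to 7.77, 7.82 and 7.79 (-0.30, adjusted p = 0.00403). TRA2A was thus lower on each AAPK array in all 5 probe sets. The calls on 2 of the 5 were lost when arrays were left out. That at -0.46 was not called without DMSO 1, DMSO 3, AAPK 1 or AAPK 3 (-0.48 to -0.32), nor that at -0.18 without any 1 of the 6 arrays (-0.20 to -0.15).

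TRA2B was flat at high signal. Its brightest probe set read 11.01, 11.02 and 10.99 in DMSO and 11.00, 11.04 and 11.00 in AAPK, a change of 0.01 ± 0.05 (SE, n = 3 per group, limma adjusted p = 0.96). The groups overlapped there and on 7 of the 9 others. The widest change was -0.16 ± 0.09 on a probe set at 7.65, 7.41 and 7.55 against 7.46, 7.51 and 7.15 (adjusted p = 0.338).

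**Figure D2:**
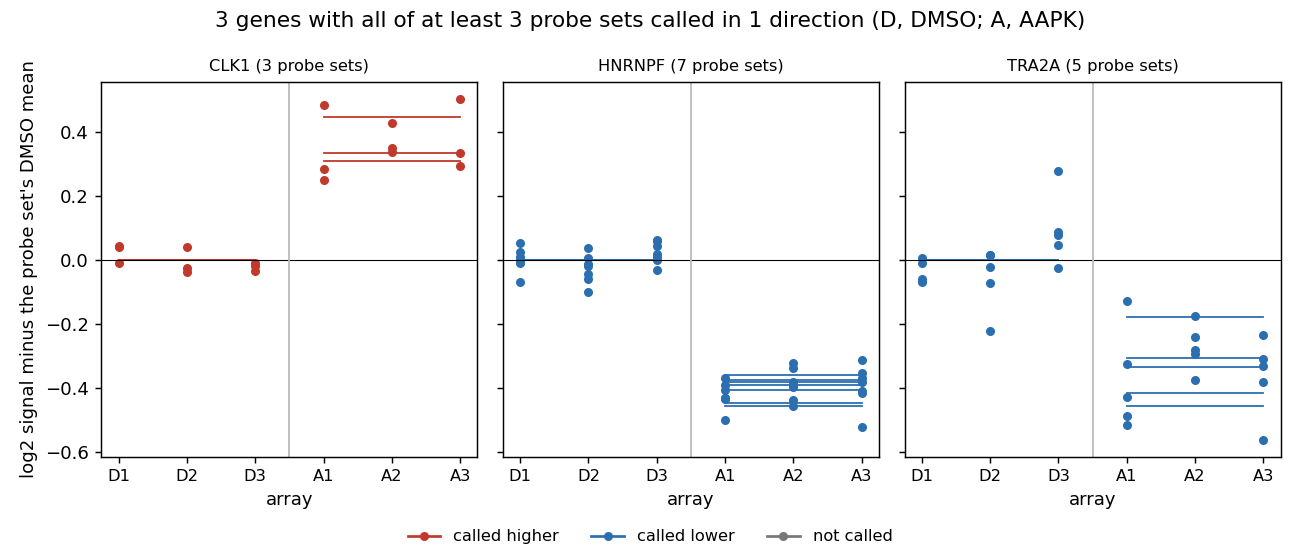
Each point is 1 probe set on 1 array, as its log2 signal minus that probe set's mean over the 3 DMSO arrays (y axis), with DMSO 1 to 3 (D1 to D3) and AAPK 1 to 3 (A1 to A3) on the x axis and short lines at group means. The AAPK means of CLK1 lie at 0.31 to 0.45, those of HNRNPF at -0.45 to -0.36 and those of TRA2A at -0.46 to -0.18.

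SRSF10, an SR protein that represses splicing when it is dephosphorylated in mitosis and after heat shock, had probe sets called in both directions. The brightest of its 7, 11721310_s_at, read 9.21, 9.18 and 9.29 in DMSO and 8.80, 8.74 and 8.77 in AAPK (-0.45 ± 0.05 SE, n = 3 per group, limma adjusted p = 2.98e-04, 1.37-fold lower). Another 2, at -0.31 and -0.28, were also called lower, with no overlap between groups. The dimmest, 11751594_s_at, read 5.02, 5.13 and 5.36 in DMSO and 5.62, 5.48 and 5.52 in AAPK. All AAPK arrays were above all DMSO arrays there, and the change was 0.37 ± 0.08 (adjusted p = 0.0122, 1.29-fold higher), a call that was lost without AAPK 1 (0.33, adjusted p = 0.0527). The remaining 3 were not called, at -0.09, 0.03 and 0.21.

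Relative to the other probe sets of the gene, the brightest SRSF10 probe set fell by 0.44 (-0.44 ± 0.05, limma adjusted p = 0.00568), a call kept under every alternative. The dimmest was 0.52 ± 0.09 above the others (adjusted p = 0.0195), and this was not called without DMSO 1, DMSO 2, AAPK 1 or AAPK 3 (0.43 to 0.53, adjusted p = 0.0531 to 0.0776). SRSF11, a U2AF-interacting SR-like protein, was called higher on 4 of 6 probe sets, at 0.23 to 0.27. The 2 brightest kept their calls under every alternative (10.64, 10.61 and 10.63 against 10.89, 10.93 and 10.83 on the first). The 2 at 0.23 and 0.25 were not called without DMSO 1, DMSO 2, AAPK 2 or AAPK 3 (0.17 to 0.26). The 2 not called stood at -0.06 and -0.09. SRSF12 had 2 probe sets, at 0.02 and -0.03, neither called.

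Of the 24 probe sets of the 6 SR protein kinases, 5 were higher, 2 were lower and 17 were not called. This is 29.2% called, against 12.9% of all probe sets. CLK1, a dual-specificity nuclear kinase of SR proteins, was called higher on all 3 of its probe sets. On 11744828_a_at the DMSO arrays read 6.21, 6.14 and 6.15 and the AAPK arrays read 6.65, 6.52 and 6.67, a change of 0.45 ± 0.05 (SE, n = 3 per group, limma adjusted p = 5.33e-04, 1.36-fold). The brightest probe set went from 7.73, 7.79 and 7.71 to 8.03, 8.17 and 8.04 (0.34 ± 0.05, adjusted p = 0.00261), and the third from 7.10, 7.02 and 7.05 to 7.31, 7.40 and 7.39 (0.31 ± 0.05, adjusted p = 0.00255). Each AAPK array was above each DMSO array on all 3.

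CLK4, the closest paralog of CLK1, had 9 probe sets, of which 1 was higher, 1 was lower and 7 were not called. The lower one was the brightest, 11760313_a_at, at 8.48, 8.58 and 8.47 in DMSO and 8.32, 8.23 and 8.26 in AAPK (-0.24 ± 0.05 SE, n = 3 per group, limma adjusted p = 0.0116). The higher one, 11756853_a_at, read 5.08, 5.02 and 5.17 against 5.36, 5.37 and 5.47 (0.31 ± 0.06, adjusted p = 0.00501, 1.24-fold). Neither pair of groups overlapped. The other 7 ran from -0.05 to 0.15, so that the direction given for CLK4 depends on which probe set stands for the gene: with the probe set of the largest SD the change was 0.31.

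CLK2 was called lower on 1 of 3 probe sets, at 7.08, 7.09 and 7.01 in DMSO and 6.86, 6.86 and 6.89 in AAPK (-0.19 ± 0.05 SE, n = 3 per group, limma adjusted p = 0.0227). This call was lost without DMSO 1, DMSO 2, AAPK 1 or AAPK 2 (-0.19 to -0.18, adjusted p up to 0.0881). Its brightest probe set read 9.79, 9.72 and 9.75 against 9.68, 9.71 and 9.64 (-0.08, adjusted p = 0.351). CLK3 had no call on 3 probe sets, the widest change being 7.02, 6.95 and 6.91 against 7.10, 7.08 and 7.27 (0.19 ± 0.06, adjusted p = 0.075).

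SRPK1 was called higher on 1 of 3 probe sets, at 7.71, 7.67 and 7.82 in DMSO and 7.99, 7.95 and 7.95 in AAPK (0.23 ± 0.05 SE, n = 3 per group, limma adjusted p = 0.0148), a call lost without DMSO 1, DMSO 2 or AAPK 1 (0.20 to 0.22, adjusted p = 0.0534 to 0.0636). Its brightest probe set was flat, at 8.01, 8.04 and 8.03 against 8.02, 8.00 and 8.01. SRPK2 had no call on 3 probe sets, with changes of -0.10, -0.13 and 0.01. The brightest of them read 8.86, 8.85 and 8.84 against 8.74, 8.81 and 8.72 (adjusted p = 0.254). Among the 6 kinases, CLK1 alone was called on every probe set.

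The 22 hnRNP genes gave 17 probe sets higher, 12 lower and 54 not called of 83 (34.9% called). By subfamily, the hnRNP C genes had 4 higher and 0 lower of 8, the hnRNP D genes 3 and 1 of 13, the hnRNP A/B genes 0 and 3 of 17, the hnRNP F/H genes 2 and 7 of 11, and the others 8 and 1 of 34. In that order 50%, 30.8%, 17.6%, 81.8% and 26.5% were called, against 12.9% of all probe sets and 20.3% of those above the median signal. All 4 calls in the hnRNP C genes were on HNRNPC and all 7 lower calls in the F/H genes were on HNRNPF. The subfamilies were not tested against each other. At an unadjusted p under 0.05, limma gave 0 lower in the hnRNP C genes and 2 higher in the hnRNP A/B genes. At a limma adjusted p of 0.05, 0 of the 10 probe sets of HNRNPU, which encodes the chromatin scaffold protein SAF-A, were called, with changes from -0.09 to 0.18 and 2 with an unadjusted p under 0.05.

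**Figure D3:**
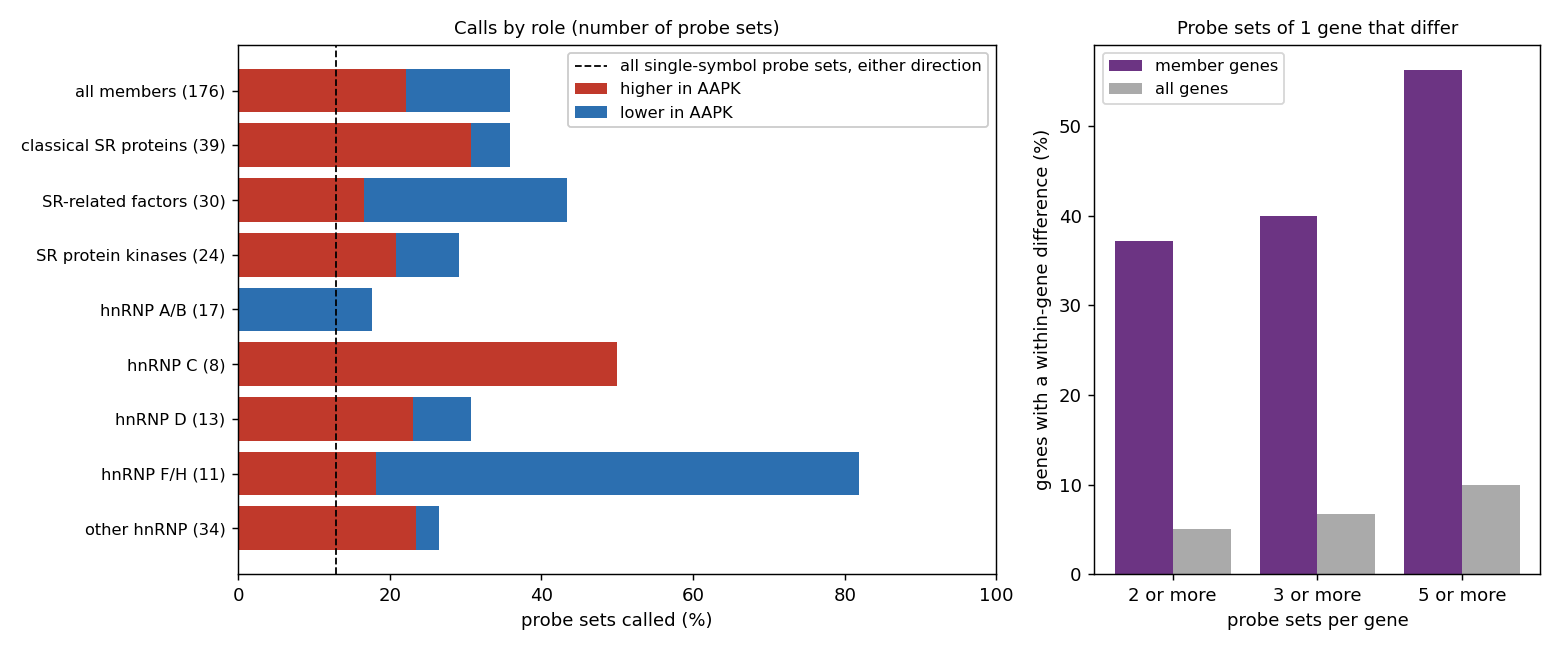
The left panel plots the percent of probe sets called higher (red) and lower (blue) in AAPK for each group of genes, with the number of probe sets in brackets and a dashed line at 12.9%, the share of all single-symbol probe sets called in either direction. The right panel plots the percent of genes with a called difference between their own probe sets, for the 35, 30 and 16 of these genes with at least 2, 3 and 5 probe sets (37.1%, 40.0% and 56.2%) and for all such genes (5.05%, 6.68% and 10.0%).

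HNRNPF, whose protein binds runs of guanines near splice sites, fell on all 7 of its probe sets. The brightest, 11725970_x_at, read 10.80, 10.75 and 10.87 in DMSO and 10.40, 10.41 and 10.44 in AAPK (-0.39 ± 0.05 SE, n = 3 per group, limma adjusted p = 6.88e-04, 1.31-fold lower). The largest change, on 11749786_x_at, was from 10.10, 10.07 and 10.10 to 9.59, 9.63 and 9.68 (-0.45 ± 0.05, adjusted p = 2.11e-04). No AAPK array reached any DMSO array on any of the 7, and the changes spanned only -0.45 to -0.36. None of the 7 calls was lost under any alternative.

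The F/H relatives went otherwise. HNRNPH3 was called higher on 2 of 3 probe sets, at 0.22 and 0.27, with the third flat (adjusted p = 0.982), and the call at 0.27 was lost without DMSO 1, DMSO 2 or any AAPK array (0.17 to 0.30). HNRNPH1, with 1 probe set, stood at 0.06 (10.00, 9.94 and 10.06 against 10.04, 10.01 and 10.12; adjusted p = 0.563). The difference between HNRNPF and its relatives was not tested.

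HNRNPM encodes a protein that binds sequences rich in guanine and uracil and can promote exon skipping. The gene had the widest spread of the 42 genes, with 3 probe sets that were all called and in both directions. On 11761516_x_at the DMSO arrays read 11.93, 12.09 and 12.02 and the AAPK arrays read 11.53, 11.53 and 11.28, a fall with a log2 change of -0.57 ± 0.07 (SE, n = 3 per group, limma adjusted p = 7.45e-04, 1.48-fold lower). On 11739175_a_at the values were 10.99, 10.92 and 11.05 against 11.36, 11.39 and 11.37 (0.39 ± 0.05, adjusted p = 6.71e-04), and on 200072_PM_s_at 10.39, 10.25 and 10.39 against 10.76, 10.86 and 10.78 (0.46 ± 0.06, adjusted p = 5.27e-04, 1.38-fold higher). In none of the 3 did the groups overlap.

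The first HNRNPM probe set fell by 0.99 relative to the mean of the other 2 (-0.99 ± 0.09, limma adjusted p = 0.00151), a 1.99-fold change in their ratio and the largest such difference among the 35 genes. It was called under every alternative, with an adjusted p of at most 0.00935. The ending of its name, x, marks probe sets in which some probes also match other sequences, and RefSeq lists 2 pseudogenes of HNRNPM. Where in the transcript each probe set lies was not analysed here.

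HNRNPDL, a relative of hnRNP D with a self-regulated transcript, was the remaining gene with calls in both directions. Its probe set 11720626_s_at read 8.61, 8.59 and 8.63 in DMSO and 8.37, 8.30 and 8.44 in AAPK (-0.24 ± 0.05 SE, n = 3 per group, adjusted p = 0.012 by limma), and its dimmest 7.69, 7.72 and 7.69 against 8.00, 7.85 and 7.88 (0.21 ± 0.05, adjusted p = 0.0252). The groups did not overlap on either. The higher call was lost without DMSO 1, DMSO 2, DMSO 3 or AAPK 1 (0.17 to 0.22, adjusted p = 0.0552 to 0.103). The other 3 were at 0.12, 0.15 and 0.17, with AAPK above DMSO on all arrays and no call in the probe set fit. The one at 0.17 is the brightest, and it was called in the fit with 1 probe set per gene (limma adjusted p = 0.0416).

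**Figure D4:**
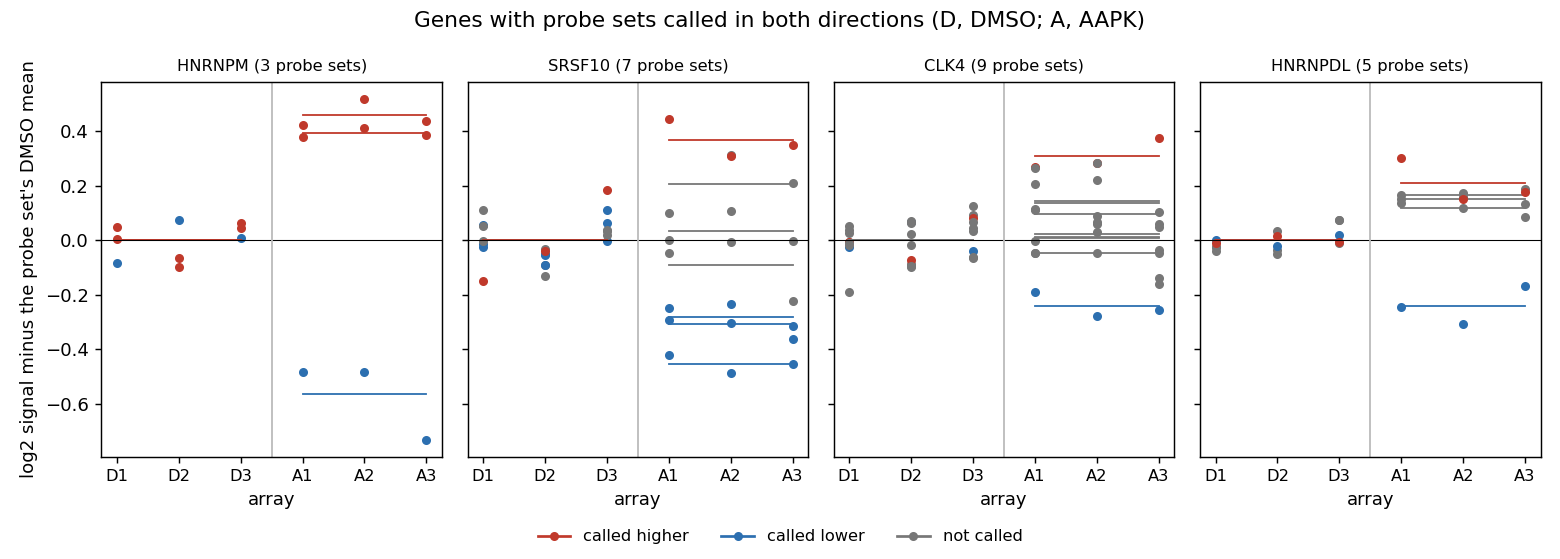
Each point is 1 probe set on 1 array, as its log2 signal minus that probe set's mean over the 3 DMSO arrays (y axis), with DMSO arrays (D1 to D3) and AAPK arrays (A1 to A3) on the x axis and short lines at group means. In HNRNPM the AAPK means stand at 0.39, 0.46 and -0.57, and in SRSF10, CLK4 and HNRNPDL at least 1 probe set called higher (red) and 1 called lower (blue) lie on either side of 0.

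Genes with probe sets called in both directions were HNRNPM, SRSF10, CLK4 and HNRNPDL, 4 of the 35 with at least 2 probe sets, where 0.435% of all such genes (51 of 11734) had them. More probe sets per gene give more chances: of genes with 5 or more, 3 of 16 here and 1.57% of all 2040 had both directions. Without AAPK 1 the number was 2, and without DMSO 1 or DMSO 2 it was 3. HNRNPM and CLK4 kept both calls with any 1 array left out. With only probe sets over the median signal, which leaves out the higher probe sets of CLK4 and SRSF10, the genes were HNRNPA1, HNRNPDL and HNRNPM, and with an intensity trend HNRNPA1 joined the 4.

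A difference between a gene's own probe sets was tested by setting each probe set against the mean of the others of its gene on the same array. By limma over 38590 probe sets, 13 of the 35 genes had a called difference, against 5.05% of all 11734 genes with 2 or more probe sets. Among genes with 5 or more the counts were 9 of 16 against 10.0%. The probe sets of these genes were brighter than most, with a median log2 signal of 8.57 against 6.49. With only probe sets over the median signal, 14 of these genes had a called difference, against 9.49% of all genes so tested. That filter kept 142 of the 176 probe sets, and how many of the 35 genes still had at least 2 was not counted. The counts per gene, of both directions and in the lists were not set against genes of like signal. The 13 were SRSF3, SRSF6, SRSF7, SRSF10, CLK4, HNRNPA1, HNRNPC, HNRNPD, HNRNPDL, HNRNPH3, HNRNPK, HNRNPLL and HNRNPM. Most of these calls need all 6 arrays, and the share of all such genes called fell too. Without DMSO 1, DMSO 2 or DMSO 3 the number of genes fell to 3, 6 and 5 (all genes: 1.53%, 2.49% and 2.51%). Without AAPK 1, AAPK 2 or AAPK 3 the number fell to 3, 4 and 7 (all genes: 1.58%, 1.62% and 3.3%). HNRNPM, SRSF7 and SRSF10 were called each time, and these were also the genes whose largest difference reached 0.5.

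HNRNPK, a KH-domain protein that binds C-rich RNA, split by brightness. Its 2 brightest probe sets were flat, at 11.54, 11.59 and 11.59 against 11.52, 11.45 and 11.59 on the first (-0.05, adjusted p = 0.61). The other 4 were called higher by 0.26 to 0.36 in limma, the clearest at 9.15, 9.25 and 9.24 in DMSO and 9.57, 9.59 and 9.56 in AAPK (0.36 ± 0.05 SE, n = 3 per group, adjusted p = 0.00103). No array overlapped between groups on any of the 4, all 4 names end in x, and RefSeq lists 5 pseudogenes of the gene. Taken by its brightest probe set HNRNPK was not called, and by the mean of its probe sets it was, at 0.19 (adjusted p = 0.00693).

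HNRNPC, which binds uridine tracts and shields cryptic exons, rose on 4 of 6 probe sets by 0.28 to 0.33. The brightest went from 11.16, 11.22 and 11.28 to 11.56, 11.57 and 11.52 (0.33 ± 0.05 SE, n = 3 per group, limma adjusted p = 0.00189). The other 2, at 0.06 and 0.16, were not called although AAPK was above DMSO on all arrays. The intronless copies HNRNPCL1 and HNRNPCL2 had 1 dim probe set each, at 0.05 and 0.07, with overlapping groups.

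HNRNPD, also called AUF1, which binds AU-rich elements, was called higher on its 2 dimmest of 8 probe sets. On 11761589_x_at the arrays read 5.20, 5.25 and 5.27 for DMSO and 5.62, 5.60 and 5.60 for AAPK (0.36 ± 0.05 SE, n = 3 per group, limma adjusted p = 6.16e-04, 1.29-fold). The second, at 0.26, was not called without DMSO 1, DMSO 3 or AAPK 1 (0.22 to 0.24). The 6 brighter probe sets ran from -0.10 to 0.17. HNRNPLL, a relative of hnRNP L known for its role in lymphocyte splicing, was called higher on its brightest probe set alone, at 8.85, 8.84 and 8.91 against 9.25, 9.26 and 9.16 (0.36 ± 0.05, adjusted p = 0.00111), and its other 4 ran from -0.03 to 0.14.

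HNRNPA0 was the only A/B gene with every probe set called. On 11716291_s_at the DMSO arrays read 9.51, 9.45 and 9.61 and the AAPK arrays read 9.09, 9.11 and 9.12 (-0.41 ± 0.05 SE, n = 3 per group, limma adjusted p = 7.04e-04, 1.33-fold lower). Its other probe set went from 9.32, 9.48 and 9.44 to 9.20, 9.23 and 9.24 (-0.19, adjusted p = 0.0437), a call lost without DMSO 2, DMSO 3 or any AAPK array (-0.20 to -0.16). HNRNPA1, a well studied antagonist of SRSF1, was called lower on 1 of 5 probe sets, at 9.20, 9.24 and 9.29 against 9.03, 8.82 and 9.08 (-0.27, adjusted p = 0.0281), not called without DMSO 1, DMSO 2, DMSO 3, AAPK 1 or AAPK 2 (-0.29 to -0.19). RefSeq lists 75 pseudogenes of HNRNPA1, and 4 of its 5 probe sets have names ending in x.

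In the remaining A/B genes, HNRNPA2B1 (-0.04 and 0.03), HNRNPA3 (-0.20 to -0.01 on 4 probe sets), HNRNPAB (0.03 to 0.13 on 3) and HNRNPA1L2 (-0.05), no probe set was called. Among the others, HNRNPR was called higher on 1 of 3, at 0.22, not called without AAPK 1 or AAPK 2 (0.21 in each, adjusted p = 0.056 and 0.0505). HNRNPL stood at 0.16 and 0.17, HNRNPUL1 at -0.10 to -0.01 on 4 probe sets and HNRNPUL2 at 0.02, with no call.

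Other genes of splicing were counted in 5 lists with 1 probe set per gene. Of 136 measured genes 38 were higher in AAPK and 4 were lower, or 30.9%, with a median change of 0.07, against 15.4% and -0.02 for all 18132 genes. The 4 genes called lower were SNRPA, SART3, MBNL2 and PCBP2, and the count was 2 without DMSO 1, DMSO 2 or AAPK 1. With quantile normalisation the lists had 30 genes higher and 7 lower, and with the mean over a gene's probe sets 35 higher and 1 lower. The U1 and U2 snRNP list, which recognises splice and branch sites, had 13 higher and 1 lower of 27 (51.9% called, median 0.14). SF3B5 was higher by 0.47 ± 0.05 (SE, n = 3 per group, with a limma adjusted p of 1.51e-04) and SNRNP70, a U1 protein bound by SR proteins, by 0.44 ± 0.07. SNRPA, another U1 snRNP protein, was lower by 0.26 (-0.26, adjusted p = 0.0425), not called without DMSO 1, DMSO 2, AAPK 2 or AAPK 3 (-0.28 to -0.19).

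The list of the tri-snRNP, catalytic complexes and helicases had 10 higher and 1 lower of 34 (median 0.06). This is 32.4% called, against 15.4% of all genes. DDX39A rose by 0.49 and PNN by 0.39, and SART3 was at -0.19, not called without DMSO 2 or AAPK 1 (-0.17 and -0.18). The list of other splicing regulators had 9 higher and 2 lower of 38 (28.9% called, median 0.06). ESRP2, an epithelial splicing factor, rose by 0.67 ± 0.06 (limma adjusted p = 8.40e-05) and FUBP1 by 0.50, MBNL2 fell by 0.53, and PCBP2 was at -0.17, not called without DMSO 1, AAPK 1 or AAPK 2 (-0.18 to -0.16).

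Further kinases, phosphatases and importers that act on SR proteins gave 2 higher and 0 lower of 19 by limma (median 0.04). That is 10.5% called, below the 15.4% of all genes. At an unadjusted limma p under 0.05 the counts were 4 and 0. PPP1R10 was called at 0.19, but not without DMSO 1, DMSO 2, DMSO 3, AAPK 2 or AAPK 3 (0.15 to 0.21). AKT1 was called at 0.18, but not without DMSO 1, DMSO 2, DMSO 3, AAPK 1 or AAPK 2 (0.16 to 0.21). Nonsense-mediated decay and exon junction genes gave 4 higher and 0 lower of 18 (22.2% called, median 0.05). At an unadjusted limma p under 0.05 there were 5 and 2. DCP2, the decapping enzyme, rose by 0.40 ± 0.05 and RBM8A, a core protein of the exon junction complex, by 0.36 ± 0.05 (limma adjusted p = 3.23e-04 and 5.45e-04). With the mean over a gene's probe sets neither was called (0.09 and 0.08, adjusted p = 0.117 and 0.217).

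The probe sets of the 42 genes also differed in kind from the rest of the array. Names ending in s, which mark probe sets shared between transcripts of different genes, made up 29% of them against 11.8% of all, and names ending in x made up 26.1% against 15.9%. Of the members ending in s, 21 of 51 were called, where 22.1% of all such probe sets were, and of those ending in x 18 of 46, against 13.5%. Their part in the results was not tested.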

How the data were processed

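Expression was measured on 6 PrimeView arrays, 3 from DMSO and 3 from AAPK. Total RNA was extracted with Trizol and labelled with biotin by in vitro transcription, per the labels' protocols. The authors deposited 1 table of log2 signals, 49395 probe sets by 6 arrays. The log2 scale was read from the deposited values, which run from 2.83 to 14.25. The arrays' like medians point to values already normalised between arrays, but this was not stated. If so, any change shared by most genes was removed. How background, normalisation and probe summary were handled was not stated. Depth has no meaning for arrays; their number, 3 per group, limits the precision.

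Probe sets were named from the platform annotation; 102 controls, 1832 probe sets with several symbols and 2473 with none were left out. Groups came from the sample titles. A linear model with group alone (limma 3.58.1 under R 4.3.3, lmFit, then eBayes, two-sided) was fitted to 44988 probe sets, to the brightest probe set of each of 18132 genes, and to within-gene differences of 38590 probe sets, each with Benjamini-Hochberg adjustment over the whole table and a threshold of 0.05. The probe set fit and the within-gene fit were run on simulated data with independent noise per probe set. Recovery was required only of the probe set fit, at a log2 change larger than any called on a member probe set. The dose and time, 10 µM and 48 h, are the labels'. The members, the gene lists and the tests were chosen with earlier results of these data known.

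Every gene is named. Full values are given for the kinases, TRA2A, TRA2B, the 12 genes with the largest called changes, genes with calls in both directions and genes with a called within-gene difference of at least 0.5. From each list up to 2 called genes with the largest rise and the largest fall are named. SRSF6, SRSF11, HNRNPA1, HNRNPC and HNRNPH1 were given array values outside this rule, after their values were seen. Alternatives were quantile normalisation, median centring, filters at the 25th percentile and the median of signal, an intensity trend, robust eBayes, array weights, replicate number as a block, each array left out, all probe sets but controls in the adjustment, another summary of a gene's probe sets, the median of the other probe sets, within-gene differences over the 25th percentile and limma's diffSplice.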

Additional observations from a re-analysis of the deposited data

Results flagged for a closer look

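Probe sets that name HNRNPH2 together with the read-through gene RPL36A-HNRNPH2 were outside the counts above, since they name 2 symbols, and all 3 were higher in AAPK. The first read 9.59, 9.49 and 9.67 in DMSO and 9.98, 9.82 and 10.10 in AAPK (log2 change 0.384723, limma adjusted p = 0.00666 over all probe sets but controls). The second read 9.60, 9.65 and 9.73 against 10.04, 9.86 and 10.17 (0.36623, adjusted p = 0.00978), and the third 9.26, 9.16 and 9.22 against 9.60, 9.55 and 9.64 (0.3877, adjusted p = 7.71e-04). The groups did not overlap on any of the 3. HNRNPH2 encodes a close paralog of hnRNP H1.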

How the results depend on the processing

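No call on a single probe set changed direction under any alternative; 44 of 63 calls were kept under all that were run on them and 19 were lost under at least 1, each of these with an array left out. The filter at the median signal left out 6 of the 63 probe sets, which were not tested under it. Higher and lower counts were 33 and 28 with quantile normalisation and 44 and 22 with median centring. Of all probe sets, 12.6% and 13.2% were called under these 2 settings, against 12.9% as reported. Genes with differing probe sets numbered 4 with the replicate block and 3 to 7 with 1 array left out. Of all genes with 2 or more probe sets, 2.22% and 1.53% to 3.3% had a called difference there, against 5.05% as reported. Genes with calls in both directions numbered 2 to 4 with 1 array left out. List genes called higher and lower numbered 30 and 7 with quantile normalisation; lower ones numbered 1 with the mean over a gene's probe sets and 2 to 4 with 1 array left out. Signs per gene were compared only where the gene was called as reported or under the alternative. With the mean over a gene's probe sets the sign turned for CLK4 (0.0496), HNRNPK (0.19), HNRNPM (0.10) and SNRPE (-0.0143). With the probe set of the largest SD it turned for SRSF5 (0.51), SRSF11 (-0.0863), CLK4 (0.31), HNRNPDL (-0.24), HNRNPK (0.36), SNRPE (-0.22), MBNL3 (0.25), DYRK2 (0.24) and PPP1CB (-0.30). These alternatives read other probe sets of the gene, by construction. Same-numbered arrays' deviations correlated at 0.03, -0.20 and -0.03, which does not show a pairing. With 3 arrays per group this cannot settle whether same-numbered samples were handled together. With the replicate block 34 probe sets were higher and 22 lower, where 10.3% of all probe sets were called. The block gave 8 genes higher and 7 lower, and 29 list genes higher and 3 lower. Under this block 3 genes had both directions.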
